A study of Mus musculus with 12 samples.

Results

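The insulin-like growth factor (IGF) genes described here were 2 ligands (Igf1 and Igf2), 2 receptors (Igf1r and Igf2r) and 6 binding proteins (Igfbp2 to Igfbp7), 10 of the 20775 genes listed in each of the deposited RPKM tables (reads per kilobase of transcript, scaled to library depth). They were picked by name as members of 1 gene system, with the knockout against control values of these same samples already known. Their differences between knockout and control are therefore given as a description, and no p is printed for them.

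IGF1 and IGF2 are secreted growth factors that act through the tyrosine kinase receptor encoded by Igf1r. The Igf2r product, the cation-independent mannose 6-phosphate receptor, takes up IGF2 for lysosomal degradation and also carries lysosomal enzymes. Most IGF in tissue is held by binding proteins, which limit or prolong its action, and IGFBP7 differs from the classical members by its low affinity for IGF. In the heart, IGF2 is a growth signal for the compact wall of the embryo, and IGF1 receptor signalling acts on the growth and survival of adult cardiomyocytes.

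In the embryonic set, RNA came from hearts of C57BL/6 embryos at E10.5, a day of mid-gestation. Here 3 cKO samples, homozygous for a floxed Med30 allele and carrying Tnnt-Cre, stood against 3 Ctrl samples from littermates without Cre. In the adult set, RNA came from cardiomyocytes of C57BL/6 mice aged 3 months, 4 weeks after tamoxifen (TAM), from 3 icKO samples with the floxed allele and αMHC-MerCreMer and from 3 Ctrl samples that lacked the transgene and were also labelled post-TAM. The labels call both control groups wild type and give the source as heart, while the methods give Med30 f/f mice without Cre as controls, so an effect of Cre or of activated MerCreMer cannot be told apart from the loss of Med30. Both drivers act in cardiomyocytes, so the other cells in a sample keep Med30, and whether samples pooled several animals was not given in the sources used here.

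Med30, which encodes a subunit of the Mediator complex that links transcription factors to RNA polymerase II, was lower in every knockout sample, at 1.004 to 2.023 RPKM against 10.6 to 13.3 RPKM in Ctrl at E10.5 and at 1.82 to 3.81 RPKM against 7.45 to 7.66 RPKM at 4 weeks. Depth, estimated from the spacing of low values, ran from 11.96 to 20.01 M reads per sample. All 8 cardiomyocyte markers were detected in each set, and their summed level was 3749 to 6211 RPKM in Ctrl and 2665 to 3296 RPKM in cKO at E10.5, and 19343 to 20119 RPKM in Ctrl and 7198 to 9081 RPKM in icKO at 4 weeks. At E10.5, 0 of these 8 markers were called. Myl2 was the largest part of the E10.5 sum, at 2317 to 4132 RPKM in Ctrl and 1319 to 1597 RPKM in cKO. Ryr2 was also lower without overlap (38.1 to 41.1 RPKM and 31.5 to 33.0 RPKM). The ranges of every other marker overlapped, such as Actn2, at 135 to 185 RPKM and 160 to 172 RPKM. At 4 weeks Myh6, Myl2, Ryr2 and Tnni3 were called lower and 0 higher, while Actn2 (602 to 661 RPKM in Ctrl and 1016 to 1211 RPKM in icKO) and Nkx2-5 (21.1 to 27.1 RPKM and 37.4 to 41.9 RPKM) were at higher values and not called. In bulk RNA, fewer cells of a type, less RNA per cell and a change of single genes cannot be told apart from such a sum. Over all tested genes the median change on the log2 scale was −0.13 at E10.5 and 0.57 at 4 weeks in the values as deposited, and median-ratio scaling moved it to −0.01 and 0.04. For that reason values with median-ratio scaling are given beside the deposited ones at 4 weeks for the tested IGF genes and the pathway counts. Sums and calls of cell markers are given as deposited only.

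One adult library stood apart in a way that touches several IGF genes. A set of 22 genes was chosen after the values were seen, as those with a mean above 20 RPKM in the E10.5 hearts and under 0.1 RPKM in each adult Ctrl sample. The library labelled icKO 1 was the highest of the 6 adult samples for 21 of these genes. Its median over the set was 0.449 RPKM, against 0.162 RPKM in icKO 2 and 0.0990 RPKM in icKO 3. The rule itself kept Ctrl low, at medians of 0.0235 to 0.0305 RPKM, so only icKO 2 and icKO 3 serve as a comparison. The set's median in icKO 1 was 1.17% of the E10.5 level. Hbb-bh1, an embryonic globin that was also picked after its values were seen, was at 0.876 RPKM in icKO 1, at 0.197 RPKM in icKO 2 and at 0.275 RPKM in icKO 3. Igf2bp1, whose product binds Igf2 mRNA, was at 0.260 RPKM in icKO 1 and at 0.0140 RPKM or less in each of the other adult samples. The excess of icKO 1 over the mean of icKO 2 and icKO 3 had a median of 0.802% of the E10.5 level over the 22 genes. It ran from −0.278% to 3.20% over this set and was 0.208% for Hbb-bh1. Among the IGF genes it was 0.657% for Igf2, 0.888% for Igfbp2, 0.910% for Igfbp5, 2.33% for Igfbp4 and 2.46% for Igf1. The share lay outside the set's range for Igf2r (4.06%), Igf1r (15.4%), Igfbp7 (−21.4%) and Igfbp3 (−31.0%). Igfbp6, at 168%, was near 0 at E10.5. The part of this library in the adult values was not tested, and results that rest on it are given with and without it.

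**Figure D1:**
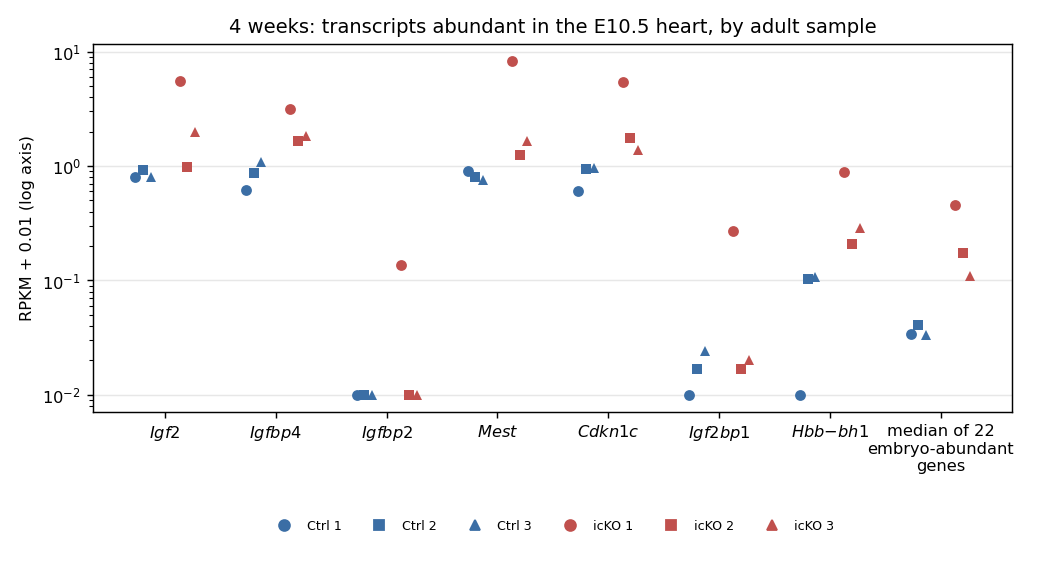
RPKM + 0.01 on a log axis in the 6 adult samples for Igf2, Igfbp4, Igfbp2 and 4 other transcripts abundant in the E10.5 heart, with the median of the 22 embryo-abundant genes at the right (points: samples, blue Ctrl, red icKO, shapes: replicates). The circle for icKO 1 is the highest point in every column, and for Igfbp2 it is the only sample above 0. In the column at the right, the rule that chose the 22 genes kept Ctrl low.

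The levels of the 10 genes were first set in order within each group. In E10.5 Ctrl hearts Igf2 was the most abundant at 664 ± 109 RPKM (SD, n = 3), followed by Igf2r at 231 ± 26.9 RPKM, Igfbp5 at 146 ± 18.9 RPKM and Igfbp4 at 63.1 ± 2.29 RPKM. The ranges of these 4 genes did not overlap. Igfbp2 (16.3 ± 2.38 RPKM) and Igf1r (13.8 ± 0.302 RPKM) overlapped each other, as did Igfbp7 (5.49 ± 0.816 RPKM) with Igf1 (5.20 ± 1.65 RPKM) and Igf1 with Igfbp3 (4.52 ± 0.312 RPKM). Igfbp6 was near 0, at 0 to 0.195 RPKM. In adult Ctrl cardiomyocytes Igf2r led at 35.8 ± 0.793 RPKM, then came Igfbp5 at 7.75 ± 0.987 RPKM, Igfbp7 at 3.86 ± 1.68 RPKM and Igf1r at 3.83 ± 0.143 RPKM, the last pair overlapping. Igfbp4, Igf2, Igfbp6 and Igfbp3 followed with means of 0.502 to 0.849 RPKM, each overlapping the next. Igf1 was at 0.106 ± 0.0504 RPKM and Igfbp2 was listed at 0 in all 3 adult Ctrl samples. The tables were normalised separately, so the order within a group is given and no test between the stages was made.

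**Figure D2:**
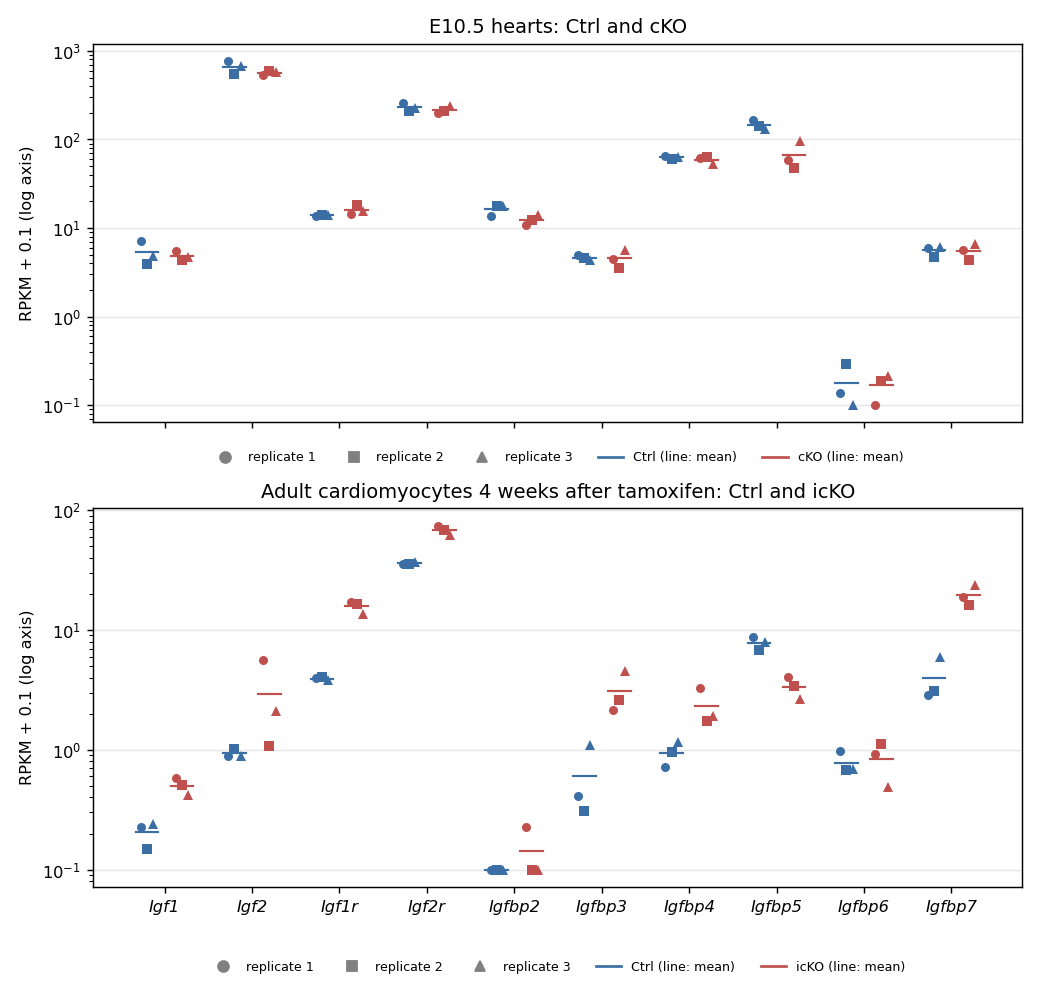
RPKM + 0.1 on a log axis for the 10 IGF genes in each sample of the E10.5 hearts (top) and the adult cardiomyocytes (bottom); points are samples, shapes replicates, and short lines group means. At E10.5 the groups are apart for Igf1r and Igfbp5, and at 4 weeks for all genes except Igfbp2 and Igfbp6.

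At E10.5 the ligands and receptors lay close to Ctrl. Igf2 measured 766, 550 and 676 RPKM in Ctrl 1 to 3 and 541, 588 and 578 RPKM in cKO 1 to 3, with a log2 fold change of −0.21 ± 0.20 (SE). The groups overlapped, since Ctrl 2 lay below cKO 2 and cKO 3. Igf1 measured 7.03, 3.83 and 4.74 RPKM in Ctrl and 5.39, 4.31 and 4.63 RPKM in cKO, all cKO values lying inside the Ctrl range. Igf2r ran from 208 to 261 RPKM in Ctrl and from 197 to 239 RPKM in cKO. Igf1r measured 13.5, 13.9 and 14.1 RPKM in Ctrl and 14.4, 17.9 and 15.6 RPKM in cKO. Its groups did not overlap, but the log2 fold change was only 0.20 ± 0.11.

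Among the binding proteins at E10.5, Igfbp5 stood out. IGFBP5 is a classical binding protein that also attaches to extracellular matrix. It measured 167, 142 and 130 RPKM in Ctrl and 59.1, 47.0 and 95.1 RPKM in cKO, and the highest cKO sample was below the lowest Ctrl sample. The log2 fold change was −1.18 ± 0.23, which is −1.05 once the median over all genes is subtracted. Igfbp2 measured 13.5, 17.5 and 17.8 RPKM in Ctrl and 10.8, 12.2 and 13.9 RPKM in cKO, a log2 fold change of −0.40 ± 0.14 with groups that overlapped through Ctrl 1 and cKO 3. Igfbp4 ran from 60.5 to 64.9 RPKM in Ctrl and from 52.4 to 63.0 RPKM in cKO. Igfbp3 ran from 4.23 to 4.85 RPKM in Ctrl and from 3.41 to 5.56 RPKM in cKO, and Igfbp7 from 4.56 to 6.04 RPKM and from 4.26 to 6.44 RPKM.

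In the fit across all genes at E10.5 (limma, calls taken where the adjusted p was below 0.05 and the fold change exceeded 1 on the log2 scale), 9 of the 10 genes had a mean RPKM above 1 and were tested. Igfbp5 alone was called, as lower, where 0.542% of the 10885 genes tested were called lower and 0.239% higher. Igfbp6 was not tested. The Igfbp5 call was lost without filtering on low RPKM, with quantile normalization (log2 fold change −0.94), without the mean-variance trend, and in each fit that left out Ctrl 1, Ctrl 2, Ctrl 3, cKO 1 or cKO 2, at log2 fold changes of −1.26 to −0.95; it held without cKO 3, at −1.46. Of the other 8 genes, 6 changed sign under at least 1 other scaling, all but Igf1r and Igfbp2. The groups did not overlap for 2 of the 9 genes tested, where 29.1% of all genes tested did not overlap. The median log2 fold change of the 9 genes was −0.10, beside −0.13 over all genes tested.

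At 4 weeks both receptors were at higher RPKM in icKO. Igf1r measured 3.84, 3.97 and 3.69 RPKM in Ctrl and 17.1, 16.3 and 13.4 RPKM in icKO. The icKO values were far above all Ctrl values, with a log2 fold change of 1.99 ± 0.11 as deposited and of 1.46 with median-ratio scaling. Igf2r measured 35.7, 35.1 and 36.7 RPKM in Ctrl and 74.0, 68.3 and 61.6 RPKM in icKO. Its groups did not overlap either, but the log2 fold change of 0.92 ± 0.08 fell under the threshold of 1, and it came to 0.38 with median-ratio scaling. A ratio of transcripts within a sample does not depend on the scaling between samples. The ratio of Igf1r to Igf2r was 0.107 ± 0.00634 in Ctrl and 0.229 ± 0.0109 in icKO (SD, n = 3), at least 0.217 in each icKO sample and at most 0.113 in each Ctrl sample. The ratio of Igf1r to Insr, the insulin receptor, named here outside the rule for naming genes, was 0.127 ± 0.00991 in Ctrl and 0.415 ± 0.0562 in icKO.

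Both ligands were scarce in adult cardiomyocytes. Igf1 measured 0.128, 0.048 and 0.141 RPKM in Ctrl and 0.483, 0.404 and 0.317 RPKM in icKO. The groups did not overlap, but the values stood for an estimated 5.90 to 16.8 reads in Ctrl and 26.7 to 57.5 reads in icKO, and the gene was not tested because its mean was under 1 RPKM. Igf2 measured 0.788, 0.919 and 0.791 RPKM in Ctrl and 5.53, 0.966 and 1.99 RPKM in icKO. Only icKO 1, the library that stood apart, was above 2 RPKM, and icKO 2 was near the highest Ctrl sample. The log2 fold change of Igf2 was 1.32 ± 0.50 and was called, but it was 0.68 and not called without icKO 1, and 0.82 and not called with median-ratio scaling. Left out in turn, Ctrl 1, Ctrl 2, Ctrl 3 and icKO 3 also ended the Igf2 call, at log2 fold changes of 1.29 to 1.40, and without icKO 2 it held at 1.88.

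The binding proteins split at 4 weeks. Igfbp7 measured 2.77, 3.00 and 5.80 RPKM in Ctrl and 18.7, 16.0 and 23.7 RPKM in icKO. Every icKO value was above every Ctrl value, with Ctrl 3 the highest of its group, and the log2 fold change was 2.37 ± 0.26, or 1.83 with median-ratio scaling. Igfbp3, the main carrier of IGF in blood, measured 0.309, 0.209 and 0.987 RPKM in Ctrl and 2.06, 2.49 and 4.40 RPKM in icKO. Again the groups were apart and replicate 3 was the highest in each, with a log2 fold change of 2.50 ± 0.46, or 2.03 with median-ratio scaling. These Igfbp3 values stood for an estimated 8.90 to 40.5 reads in Ctrl and 84.0 to 127 reads in icKO.

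Igfbp5 went the other way in the adult cells. It measured 8.69, 6.72 and 7.82 RPKM in Ctrl and 3.92, 3.32 and 2.57 RPKM in icKO, so that all icKO samples lay below all Ctrl samples. The log2 fold change was −1.23 ± 0.17 as deposited and −1.76 with median-ratio scaling. Igfbp4 measured 0.613, 0.867 and 1.07 RPKM in Ctrl and 3.16, 1.65 and 1.83 RPKM in icKO. The groups were apart, with icKO 1 the highest, and the log2 fold change of 1.26 ± 0.28 was called; it was 0.98 and not called without icKO 1, and 0.76 and not called with median-ratio scaling. Igfbp6 measured 0.880, 0.573 and 0.594 RPKM in Ctrl and 0.826, 1.02 and 0.389 RPKM in icKO, with overlapping groups. Igfbp2 was listed at 0 in 5 of the 6 adult samples and at 0.127 RPKM, about 2.80 reads, in icKO 1.

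**Figure D3:**
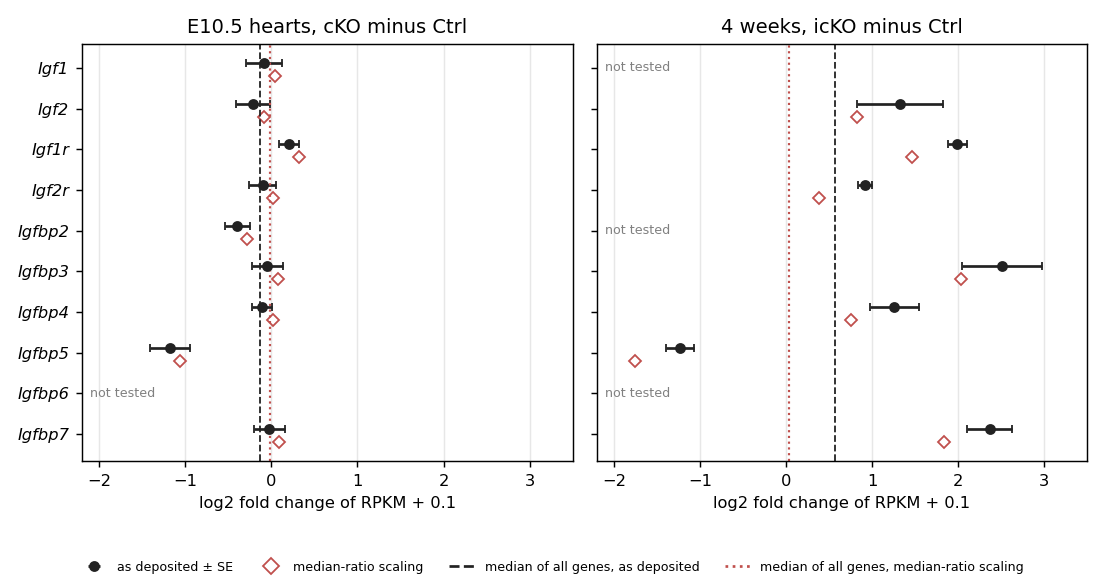
Log2 fold change of RPKM + 0.1, knockout minus Ctrl, for the IGF genes at E10.5 (left) and 4 weeks (right); filled circles are the values as deposited with their SE (3 samples per group), open diamonds the values with median-ratio scaling, and vertical lines the medians of all genes tested. Igfbp5 lies near −1.2 at both stages as deposited, and Igf1r, Igfbp3 and Igfbp7 lie at or above 1.99 at 4 weeks as deposited.

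At 4 weeks 7 of the 10 genes were tested, and 3 of these (Igf2, Igfbp3 and Igfbp4) had a mean above 1 RPKM in icKO and not in Ctrl, so that they passed the filter through icKO alone. As deposited, 5 were called higher (Igf2, Igf1r, Igfbp3, Igfbp4 and Igfbp7) and Igfbp5 lower, where 28.0% of the 9517 genes tested were called higher and 8.45% lower. With median-ratio scaling, Igf1r, Igfbp3 and Igfbp7 were called higher and Igfbp5 lower, where 11.6% of all genes tested were called higher and 15.5% lower. Without icKO 1 the count called higher was 3 as well, and no other single library took it below 4. The groups of all 7 tested genes did not overlap, where 80.8% of all genes tested did not overlap. Those of Igf1, which was not tested, did not overlap either. The median log2 fold change of the 7 genes was 1.32, beside 0.57 over all genes tested.

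The binding protein transcripts were also summed in each sample. The sums depend on the scaling between samples, while the shares of a sum and the ratios do not. At E10.5 the summed RPKM of the 6 transcripts was 236 ± 18.0 in Ctrl and 148 ± 22.7 in cKO as deposited (SD, n = 3), and 224 ± 8.81 and 153 ± 16.9 with median-ratio scaling. Igfbp5 made up 61.9% ± 3.31 of this sum in Ctrl and 44.3% ± 9.54 in cKO, and Igfbp4 26.9% ± 1.78 and 40.7% ± 9.42. Thus Igfbp5 was above Igfbp4 in all 3 Ctrl samples, while in cKO the ranges of both transcripts overlapped. At 4 weeks the sum was 13.6 ± 2.47 RPKM in Ctrl and 28.7 ± 4.17 RPKM in icKO as deposited, and 16.4 ± 2.95 and 23.7 ± 3.87 RPKM with median-ratio scaling. Igfbp5 made up 57.6% ± 8.81 in Ctrl and 11.7% ± 3.33 in icKO, and Igfbp7 27.6% ± 7.44 and 67.4% ± 3.97. The ratio of Igfbp7 to Igfbp5 ran from 0.319 to 0.741 in the adult Ctrl samples and from 4.77 to 9.20 in the icKO samples, so that the leading transcript changed from Igfbp5 to Igfbp7 in every icKO sample.

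**Figure D4:**
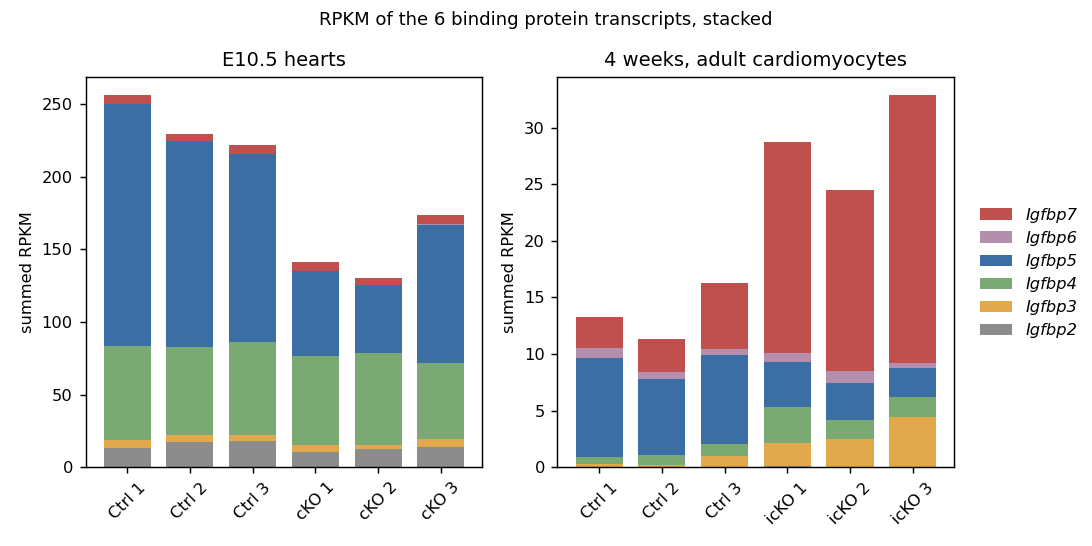
Summed RPKM of Igfbp2 to Igfbp7 in each sample, stacked by transcript, for E10.5 hearts (left) and adult cardiomyocytes at 4 weeks (right), on separate linear axes from 0. The Igfbp5 part is smaller in all cKO and icKO samples, and the Igfbp7 part makes up 67.4% ± 3.97 of the sum in icKO.

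Markers of other cells moved together with part of these values at 4 weeks. Of 8 fibroblast markers, 5 were tested and all 5 were called higher, where 28.0% of all genes tested were. Col1a1, Col1a2, Col3a1 and Postn among them had a mean under 1 RPKM in Ctrl, so they passed the filter through icKO alone. The summed level over all 8 fibroblast markers was 5.03 to 8.39 RPKM in Ctrl. It was 87.5, 60.4 and 63.6 RPKM in icKO 1 to 3, highest in icKO 1, the library that stood apart. Of 8 endothelial markers, 1 was called higher, and the summed level was 11.6, 22.2 and 33.1 RPKM in Ctrl 1 to 3 and 33.0, 31.0 and 55.4 RPKM in icKO 1 to 3. Macrophage markers summed to 2.86 to 4.54 RPKM in Ctrl and 6.78 to 9.59 RPKM in icKO. Mural markers summed to 61.2 to 69.0 RPKM in Ctrl and 23.0 to 45.9 RPKM in icKO, with 2 of 4 tested called higher and 1 lower. The lower sum came from Abcc9 alone, at 50.6 to 59.7 RPKM in Ctrl and 2.85 to 7.67 RPKM in icKO. Every other mural marker had a higher mean in icKO, such as Cspg4, at 1.49 to 1.54 RPKM in Ctrl and 6.29 to 9.02 RPKM in icKO. Endocardial (3.71 to 5.56 and 5.83 to 7.53 RPKM), epicardial (0.991 to 2.71 and 1.70 to 3.68 RPKM) and erythroid markers (0.922 to 10.9 and 4.80 to 11.5 RPKM) were low in both groups, with 1 of 2 tested endocardial markers called higher. No marker list had a gene at 0 in all samples, and the part of these cells in Igf1, Igf2, Igfbp3, Igfbp4 and Igfbp7 was not tested. At E10.5 the fibroblast markers summed to 90.6 to 166 RPKM in Ctrl and 116 to 133 RPKM in cKO, and the endothelial markers to 162 to 213 RPKM and 193 to 206 RPKM, with overlapping ranges. The macrophage markers summed to 8.75 to 11.5 RPKM in Ctrl and 5.001 to 6.82 RPKM in cKO, without overlap. Of 2 tested, Lyz2 was called lower, where 0.542% of all genes tested were, and Cd68 was not called. Lyz2 ran from 6.43 to 8.92 RPKM in Ctrl and from 3.02 to 4.96 RPKM in cKO. Cd68 overlapped, at 1.64 to 1.72 RPKM and 1.42 to 1.82 RPKM, so the lower sum came mainly from Lyz2. The erythroid markers summed to 25.7 to 72.6 RPKM in Ctrl and 46.2 to 241 RPKM in cKO, highest in cKO 1, and 0 of 6 were called by limma. The part of these cells in the E10.5 values, Igfbp5 included, was not tested.

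The genes lie apart in the mouse genome, with 1 pair of close neighbours (RefSeq genes, GRCm38.p6). Igfbp2 (chr1:72824480-72852474, plus strand) and Igfbp5 (chr1:72858065-72874865, minus strand) face each other tail to tail, 5590 bases apart. Igfbp3 is at chr11:7206086-7215498 and Igfbp4 at chr11:99040005-99052655, Igfbp7 at chr5:77349240-77408045, Igfbp6 at chr15:102144186-102149512, Igf1 at chr10:87858265-87937047 and Igf1r at chr7:67952257-68233668. Igf2 (chr7:142650768-142666816) overlaps the antisense RNA Igf2os, and Igf2r (chr17:12682406-12769706) overlaps Airn, a noncoding RNA on the opposite strand. Igfbp7 overlaps Polr2b, also on the opposite strand. Noncoding RNA genes also overlap Igf1 (Igf1os), Igf1r (Gm51487 and Gm51488) and Igfbp7 (Gm34648). Whether reads were counted by strand was not given in the sources used here, so reads from bases shared by overlapping genes cannot be told apart. How many such bases lie in exons was not determined.

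Promoters, 250 bases before to 50 bases after a start, were taken from RefSeq (GRCm38.p6), with 14 windows for the 10 genes. The windows of the 4 genes that kept their call at 4 weeks under every setting that tested them are shown, because Mediator acts at promoters. Capitals mark strings like a TATA box (TATAAA, the variant TATATA and the variant TTTAAA) and the GC box GGGCGG, each searched on both strands. The windows are chr1:72874816-72875115 (Igfbp5), chr11:7213874-7214173 (Igfbp3) and chr5:77407996-77408295 (Igfbp7), all on the minus strand, and chr7:67952007-67952306 (Igf1r) on the plus strand.
Igfbp5: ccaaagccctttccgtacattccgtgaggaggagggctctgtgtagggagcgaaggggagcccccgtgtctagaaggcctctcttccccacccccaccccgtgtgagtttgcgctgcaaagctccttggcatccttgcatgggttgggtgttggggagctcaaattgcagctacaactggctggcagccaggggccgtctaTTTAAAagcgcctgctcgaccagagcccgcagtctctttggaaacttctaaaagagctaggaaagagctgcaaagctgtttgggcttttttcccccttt
Igfbp3: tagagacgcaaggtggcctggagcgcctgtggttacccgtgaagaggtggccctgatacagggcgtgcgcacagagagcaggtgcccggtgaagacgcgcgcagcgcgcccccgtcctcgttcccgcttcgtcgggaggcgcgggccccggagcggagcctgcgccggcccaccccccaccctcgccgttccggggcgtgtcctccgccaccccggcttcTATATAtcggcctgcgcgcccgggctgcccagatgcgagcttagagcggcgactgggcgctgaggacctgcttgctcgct
Igfbp7: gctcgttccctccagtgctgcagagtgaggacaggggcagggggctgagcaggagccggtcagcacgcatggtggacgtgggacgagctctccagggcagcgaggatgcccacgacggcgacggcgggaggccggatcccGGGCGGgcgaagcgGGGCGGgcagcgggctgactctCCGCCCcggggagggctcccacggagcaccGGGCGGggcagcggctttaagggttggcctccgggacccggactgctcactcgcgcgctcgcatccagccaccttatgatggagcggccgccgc
Igf1r: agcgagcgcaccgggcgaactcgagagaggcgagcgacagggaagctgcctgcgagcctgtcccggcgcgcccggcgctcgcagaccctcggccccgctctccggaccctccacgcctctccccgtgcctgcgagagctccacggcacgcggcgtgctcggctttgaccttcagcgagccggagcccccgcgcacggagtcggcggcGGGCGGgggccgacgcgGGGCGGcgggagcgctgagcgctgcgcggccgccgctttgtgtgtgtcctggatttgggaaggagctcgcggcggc

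The window of Igfbp5, lower at both stages, holds TTTAAA from position −49 and no GC box, at 56.3% GC and 10 CpG. That of Igfbp3 holds TATATA from position −30, at 71.7% GC. The Igfbp7 and Igf1r windows hold none of the TATA-like strings, and 4 and 2 GC boxes, at 73.3% and 76.0% GC. Igfbp4, not shown, holds TATAAA from position −28, and 4 of the 14 windows hold a TATA-like string, as do 26.7% of all promoters. Of all 32851 promoters, 13.6% hold TATAAA, 5.67% TATATA, 13.2% TTTAAA and 35.7% GGGCGG. These are matches of letters only. The median GC content was 64.0% over the 14 windows and 52.7% over all promoters.

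The wider pathway was read from 5 lists of 62 genes in all (60 in the tables). At E10.5, 53 were tested and 0 were called by limma, while 3 reached an unadjusted p under 0.05 upward and 11 downward. The share of all genes at this unadjusted level was not counted, so this split is not read as a result about the pathway. The median log2 fold change of the 53 genes was −0.02, beside −0.13 over all genes tested. Both genes with an adjusted p under 0.05 missed the fold threshold, and are named here after their values were seen. Grb14, an adaptor that inhibits the insulin receptor, measured 12.9, 11.2 and 12.7 RPKM in Ctrl and 6.35, 7.36 and 7.51 RPKM in cKO (log2 fold change −0.79, limma adjusted p = 0.0177). Igfbpl1, a relative of the binding proteins, measured 11.3, 11.7 and 11.5 RPKM in Ctrl and 5.31, 7.74 and 7.42 RPKM in cKO (log2 fold change −0.76, limma adjusted p = 0.0285).

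At 4 weeks 48 pathway genes were tested, and 17 were called higher and 4 lower as deposited, where 28.0% of all genes tested were called higher and 8.45% lower. With median-ratio scaling 7 were called higher and 11 lower, where 11.6% and 15.5% of all genes tested were, so the balance between directions depended on the scaling. The median log2 fold change of the 48 genes was 0.50, beside 0.57 over all genes tested.

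In the list of the insulin receptor and its adaptors, 5 of 17 tested genes were called higher and 2 lower as deposited. With median-ratio scaling 3 were called higher and 4 lower. Without the fold threshold, 11 had a limma adjusted p under 0.05 upward and 4 downward as deposited. The share of all genes at this level was not counted, so this split is not read as a result about the list. Pik3r1, the main regulatory subunit of the PI3-kinase that insulin and IGF receptors engage, measured 65.4, 48.4 and 40.5 RPKM in Ctrl and 7.85, 7.49 and 7.61 RPKM in icKO (log2 fold change −2.70 ± 0.16, limma adjusted p = 9.06e-07). Pik3r3, another regulatory subunit, measured 1.18, 0.801 and 1.94 RPKM in Ctrl and 16.3, 14.1 and 14.3 RPKM in icKO (3.49 ± 0.25, limma adjusted p = 2.88e-06). In icKO, Pik3r3 was thus above Pik3r1 in RPKM, where in Ctrl Pik3r1 was far above it. Pik3cb, a catalytic subunit of the enzyme, rose from 2.63 ± 0.199 to 15.8 ± 1.43 RPKM (2.54 ± 0.11, limma adjusted p = 2.96e-07). Ptpn1, a phosphatase that shuts off the insulin receptor, rose from 2.07 ± 0.108 to 9.66 ± 1.22 RPKM (2.16 ± 0.12, limma adjusted p = 9.08e-07). All 4 kept their direction and call under every setting tried.

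In the Akt and mTOR branch, 7 of 18 tested genes were called higher and 1 lower as deposited, and 1 higher and 2 lower with median-ratio scaling. Without the fold threshold, 13 had a limma adjusted p under 0.05 upward and 1 downward as deposited. Here too the share of all genes at this level was not counted, and the split is not read as a result. Rps6kb2, a ribosomal S6 kinase, rose from 4.33 ± 0.0958 to 18.2 ± 1.68 RPKM (log2 fold change 2.04 ± 0.10, limma adjusted p = 4.36e-07) and was called with both scalings. Pdpk1, the kinase that activates Akt, was at 1.51 ± 0.09 on the same scale (limma adjusted p = 1.19e-06). Gsk3b, a kinase that Akt inhibits, was at 1.46 ± 0.10 (limma adjusted p = 1.74e-06), and Rictor, a scaffold of mTOR complex 2, at 1.40 ± 0.13 (limma adjusted p = 1.14e-05). With median-ratio scaling these last 3 were at 0.98, 0.93 and 0.87 and were not called.

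Of the relatives and processing enzymes of the binding proteins, 3 of 9 were tested. Igfals, which joins IGF and IGFBP3 in a complex in blood, measured 2.07, 1.69 and 1.42 RPKM in Ctrl and 0.978, 0.367 and 1.14 RPKM in icKO (log2 fold change −1.08 ± 0.36, limma adjusted p = 0.0210), and lost its call with a pseudocount of 1 and without Ctrl 1, Ctrl 2 or icKO 2. In the growth hormone axis, 0 of 5 genes were called by limma as deposited, though 4 had an unadjusted p under 0.05, all downward. The share of all genes at this unadjusted level was not counted. Among the 4 genes, Socs2, Stat5a and Stat5b, named after their values were seen, had limma adjusted p-values of 0.000178, 0.000948 and 0.00367. They missed the fold threshold, at log2 fold changes of −0.95, −0.67 and −0.54. With median-ratio scaling 3 of the 5 were called lower.

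All 5 tested genes among the Igf2 mRNA-binding proteins and imprinted growth genes were called higher as deposited, where 28.0% of all genes tested were. With median-ratio scaling 3 were called higher, where 11.6% of all genes tested were. Mest and Cdkn1c, at 1.07 and 0.94 with that scaling, were not called. Of the 5, 4 (Peg3, Plagl1, Mest and Cdkn1c) had a mean above 1 RPKM in icKO and not in Ctrl, and so passed the filter through icKO alone. Peg3, an imprinted zinc finger gene, measured 0.649, 0.684 and 0.523 RPKM in Ctrl and 22.6, 15.8 and 9.84 RPKM in icKO (log2 fold change 4.42 ± 0.27, limma adjusted p = 1.15e-06). Plagl1, an imprinted transcription factor gene, rose from 0.287 ± 0.0248 to 3.97 ± 0.282 RPKM (3.40 ± 0.18, limma adjusted p = 6.95e-07). Igf2bp2, whose product binds Igf2 mRNA, rose from 1.26 ± 0.226 to 7.79 ± 0.955 RPKM (2.55 ± 0.16, limma adjusted p = 1.39e-06). Plagl1 and Igf2bp2 were within a narrow range over the 3 icKO samples, icKO 1 included. Mest, imprinted like Igf2, measured 0.889, 0.787 and 0.741 RPKM in Ctrl and 8.31, 1.23 and 1.65 RPKM in icKO. Its log2 fold change was 1.57 ± 0.58 (limma adjusted p = 0.0329), and without icKO 1 it was 0.75 and not called. Leaving out Ctrl 2 or Ctrl 3 also ended the Mest call, at 1.56 and 1.52.

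**Figure D5:**
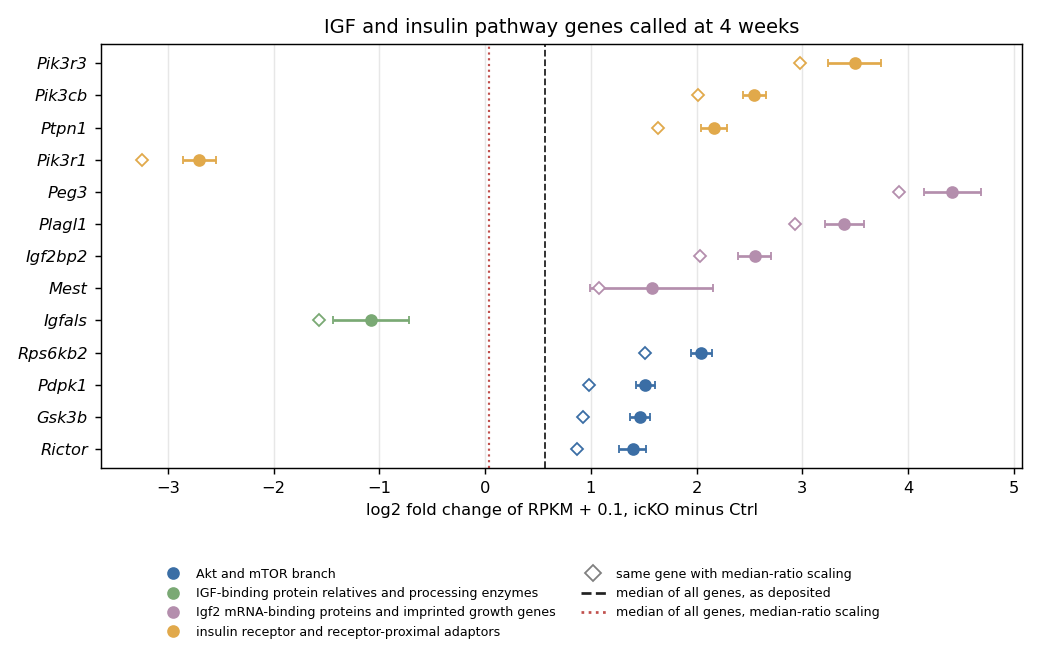
Log2 fold change of RPKM + 0.1, icKO minus Ctrl at 4 weeks, with SE (3 samples per group), for the 13 pathway genes named by the rule, coloured by list; open diamonds give the same genes with median-ratio scaling and vertical lines the medians of all genes tested. Pik3r1 and Igfals lie left of 0 and the other genes to the right with both scalings.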

How the data were processed

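RNA was measured in 12 samples, as 3 Ctrl and 3 cKO samples at E10.5 and 3 Ctrl and 3 icKO samples at 4 weeks. RNA libraries were made from total RNA depleted of ribosomal RNA. The authors mapped reads to mm10 (GRCm38), counted them per gene and deposited RPKM for each sample, in 1 table per stage. Their processing notes name cutadapt 2.6, STAR 2.5.3a, HOMER 4.11.1 and DESeq2 1.12.4. The tables also hold the authors' own fold changes and adjusted p values, which were not used. The annotation and the strand setting of the counting were not given in the sources used here.

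The IGF genes and the pathway and marker lists were chosen with earlier results of these data known. The stages were fitted separately. The log2(RPKM + 0.1) values, not rescaled, went into limma 3.58.1 under R 4.3.3 (lmFit, then eBayes with a trend) for those genes whose mean over the 6 samples exceeded 1 RPKM. The Benjamini-Hochberg adjustment covered every tested gene, and calls needed an adjusted p below 0.05 with a fold change exceeding 1 on the log2 scale. Fold changes on this scale understate the change of low genes. Nothing states that samples are separate animals, so p values measure the spread between these samples only. On simulated tables, 200 genes were changed by 2 on the log2 scale, up or down. Of these, 180 were recovered at E10.5 (10781 genes tested, 5 false calls) and 179 at 4 weeks (9292 genes tested, 1 false call). Changes near the threshold of 1 were not simulated, nor was a shift of the median over all genes as at 4 weeks.

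Depth was estimated as the number of reads at which low RPKM lie nearest to whole reads. Of these values, 63.7% to 71.8% then fell no further than 0.1 from a whole number of reads, against 20% by chance. Read estimates use the longest transcript linked to RefSeq and cover counting error only, with 3 reads as the floor of a value of 0. All 10 IGF genes, in every sample, were named by rule, with Med30 and, per stage and pathway list, the called genes up to the 4 with the largest log2 fold change. Others are named as chosen outside it. The alternatives were pseudocounts of 1 and 0.01, median-ratio scaling, quantile normalization, a scaling that left out the 20 most abundant genes, no filter, filters at a mean of 5 RPKM or at 1 RPKM in 3 samples, eBayes with no trend, each sample left out in turn, and a block for the replicate number. Tables were summarised with Python 3.11.15 and pandas 2.3.3.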

Additional observations from a re-analysis of the deposited data

Results flagged for a closer look

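Among the IGF genes and the pathway genes named by the rule that were tested at both stages, there were 4 for which every knockout sample lay below the Ctrl mean at E10.5 and above it at 4 weeks, and the difference between the stages was not tested, since the tables were normalised separately. The log2 fold change at 4 weeks minus that at E10.5 was 1.53 for Igf2, 1.36 for Igfbp4, 2.28 for Mest and 2.79 for Igf2bp2. With median-ratio scaling, the log2 fold change of Igfbp4 at E10.5 was 0.01 in place of −0.10, so its opposite direction did not hold. That of Igf2 at E10.5 was −0.21 as deposited, −0.09 with median-ratio scaling and 0.04 with quantile normalization. The direction of Igf2 at E10.5 thus also depended on the scaling. Igf2, Igfbp4 and Mest at 4 weeks are also genes for which icKO 1 was the highest sample, whose part was not tested, and Igf2bp2 was at 8.21, 8.47 and 6.70 RPKM in icKO 1 to 3.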

How the results depend on the processing

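At E10.5 the count of IGF genes called lower was 1 (Igfbp5) and fell to 0 with no RPKM filter, with quantile normalization and with eBayes without a trend, and ran from 0 to 1 over the fits that left out 1 sample. At 4 weeks the count called higher was 5, and was 3 with a pseudocount of 1, with median-ratio scaling and with quantile normalization, 2 with a mean RPKM above 5, and 3 to 5 over the fits that left out 1 sample. Of the 48 pathway genes at 4 weeks, the 17 called higher became 7 with median-ratio scaling, 7 with quantile normalization and 11 with a mean RPKM above 5. The 4 called lower became 11 with median-ratio scaling, 11 with quantile normalization, 7 when the 20 most abundant genes were left out of the scaling, and 2 with a pseudocount of 1 or with a mean RPKM above 5, which tested 36 pathway genes. Over all genes at 4 weeks, 2668 were called higher and 804 lower, against 1106 and 1476 with median-ratio scaling. The cause of these differences was not tested. With the replicate number as a block, the counts of IGF genes stayed at 1 lower at E10.5 and at 5 higher and 1 lower at 4 weeks, and those of pathway genes at 17 and 4. Deviations of same-numbered samples correlated at 0.0124, 0.101 and −0.0698 at E10.5 and at 0.153, 0.0433 and 0.0450 at 4 weeks. Not every sample correlated best with its own number. Whether same-numbered samples were paired was not given in the sources used here, and so few samples cannot decide it. Genes with few reads in adult Ctrl cells, such as Igf1 (5.90 to 16.8 estimated reads) and Igfbp2 (listed at 0), are limited by depth.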
